A study of Mus musculus with 4 samples.

Results

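Bile acids are detergents made from cholesterol in the liver, and most of them are taken up again in the last part of the small intestine, the ileum. The 10 genes described here carry them across the ileal enterocyte or sense them there: Slc10a2, Fabp6, Slc51a, Slc51b, Abcc2, Abcc3, Nr1h4, Nr0b2, Fgf15 and Gpbar1. They were chosen by name for this pathway, when the levels of Fabp6 and Slc10a2 in these libraries were already known, so those levels are given as a description with no test. The tables listed 17762 genes in at least 1 library, and 8 of the 10 had enough reads for a test that covered 12769 genes.

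All libraries came from adenomas of ApcMin mice of strain C57BL/6 aged 110 days, and the Min mutation of Apc, a tumour suppressor gene, is shared by both groups. The KO group held 2 libraries labelled Strap KO, and the WT group held 2 labelled Strap WT. Strap encodes a WD-repeat adaptor protein. The design text writes the knockout as StrapIEKO, and the sources used here do not give the promoter that drives the deletion. Polyadenylated RNA was sequenced, and the labels do not say which animals the libraries come from, so p-values measure only the spread between these libraries.

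Strap was at 7.40 and 10.01 FPKM in KO replicates 1 and 2, against 61.3 and 43.8 FPKM in WT replicates 1 and 2, where FPKM corrects a level for the length of the transcript and the depth of the library. The libraries held 14084831 to 15640941 expected counts. Xist, which female cells use to silence an X chromosome, was at 10.5 FPKM in KO replicate 1 and 54.7 FPKM in WT replicate 1. In replicate 2 it was at 0.05 FPKM in KO and 0.01 FPKM in WT. The Y-linked gene Ddx3y was listed in replicate 2 alone, at 7.57 FPKM in KO and 8.62 FPKM in WT. Each genotype therefore held 1 library of each pattern, so its 2 libraries were not 2 samples of 1 animal. The tissue label is colon adenoma, while the protocol speaks of the intestine. Of 12 genes listed for the colon, B4galnt2 (129 to 249 FPKM), Car4 (86.7 to 240 FPKM) and Slc26a3 (42.2 to 90.3 FPKM) were well expressed and the other 9 were low or not listed: Hoxb13 was listed in WT replicate 2 alone at 0.63 FPKM, Hoxd10 and Hoxd12 were listed in no library, and Car1, a carbonic anhydrase gene, reached at most 3.81 FPKM.

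Bile acids enter the ileal enterocyte through the sodium-dependent transporter encoded by Slc10a2, are bound in the cytosol by the protein of Fabp6, and leave towards the blood through a dimer of the Slc51a and Slc51b products. Inside the cell they activate the nuclear receptor Fxr, encoded by Nr1h4, which pairs with a retinoid X receptor. Fxr is known to raise Fabp6, Slc51a, Slc51b, Nr0b2 and Fgf15 and, through Nr0b2, to hold down Slc10a2 in mice. Fgf15 is a hormone that travels to the liver and lowers bile acid synthesis there. In mice Slc10a2 and Fabp6 are most active in the ileum, so their transcripts also mark position along the gut.

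The whole set was active in these adenomas except Nr0b2 and Gpbar1, and Fabp6, Slc10a2 and Fgf15 each differed at least 3.05-fold between the 2 libraries of either genotype. Of the 8 tested genes 6 were highest in WT replicate 2, a library that held the highest FPKM for 22.7% of all tested genes, and 5 were lowest in KO replicate 2. Both counts include Fabp6 and Slc10a2, whose levels were known when the genes were chosen, so the counts are a description. No tested gene of the 8 was called different between KO and WT by edgeR at an adjusted p under 0.05, where 0.00783% of all tested genes were called, and none was called lower by DESeq2, where 3.14% were. The same edgeR test did not call Strap itself, at an adjusted p of 0.0942. Before adjustment, edgeR gave 1 of the 8, Nr1h4, a p under 0.05. All libraries are bulk samples, so fewer cells of a type and less RNA per cell cannot be told apart.

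Slc10a2, the uptake transporter gene on chromosome 8 from 5083219 to 5105287 (mm10), was at 16.3 and 2.94 FPKM in KO replicates 1 and 2, against 21.3 and 64.9 FPKM in WT replicates 1 and 2. The genotypes did not overlap, KO being lower, and the highest library stood 22.1 times above the lowest. Its expected counts were 1027 and 167 in KO, against 1324 and 3991 in WT. Within a genotype the libraries differed 5.53-fold in KO and 3.05-fold in WT. The fitted log2 fold change was -2.08 (SE 0.90, n = 2 libraries per group).

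Fabp6, on chromosome 11 from 43596040 to 43601562, encodes the ileal bile acid-binding protein and had the highest FPKM of the 10 genes in each library. It stood at 1860 and 279 FPKM in KO, against 952 and 5605 FPKM in WT. These levels ranked 55th and 310th among all listed genes in KO, and 90th and 14th in WT. The genotypes overlapped, because KO replicate 1 lay above WT replicate 1 and KO replicate 2 lay below both WT libraries. The 2 KO libraries differed 6.66-fold and the 2 WT libraries 5.89-fold, and the highest library stood 20.1 times above the lowest. The fitted log2 fold change was -1.51 (SE 1.11), which became 0.26 without WT replicate 2, while that of Slc10a2 became -1.06.

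The exporter genes moved over a narrower range. Slc51a, on chromosome 16 from 32475578 to 32487879, was at 254 and 204 FPKM in KO, against 268 and 668 FPKM in WT. Both KO libraries were below both WT libraries in FPKM, but in CPM, which scales counts to a common total with TMM factors, KO replicate 1 at 403 CPM was above WT replicate 1 at 393 CPM. Slc51b, on chromosome 9 from 65412753 to 65422773, was at 172 and 156 FPKM in KO, against 155 and 324 FPKM in WT. Here the genotypes overlapped, with WT replicate 2 alone standing high. The log2 fold changes were -0.99 (SE 0.47, edgeR adjusted p = 0.368) for Slc51a and -0.50 (SE 0.36, edgeR adjusted p = 0.534) for Slc51b, which without WT replicate 2 became -0.19 for Slc51a and 0.11 for Slc51b.

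The ratio of Slc51a to Slc51b FPKM, the genes of the 2 exporter subunits, was 1.47 and 1.31 in KO and 1.73 and 2.06 in WT, a 1.58-fold range over the libraries. The ratio of Fabp6 to Slc10a2 FPKM was 114 and 95 in KO and 44.8 and 86.4 in WT, a 2.56-fold range, although each gene alone spanned over an order of magnitude. Both KO libraries had the lower subunit ratio and the higher Fabp6 to Slc10a2 ratio, differences that were not tested and have no share over other gene pairs beside them. The other ratios computed overlapped between the genotypes. These were Fgf15 to Nr1h4, Fabp6 to Nr1h4, Abcc2 to Abcc3, and Fabp6 to the apolipoprotein gene Apoa4.

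**Figure D1:**
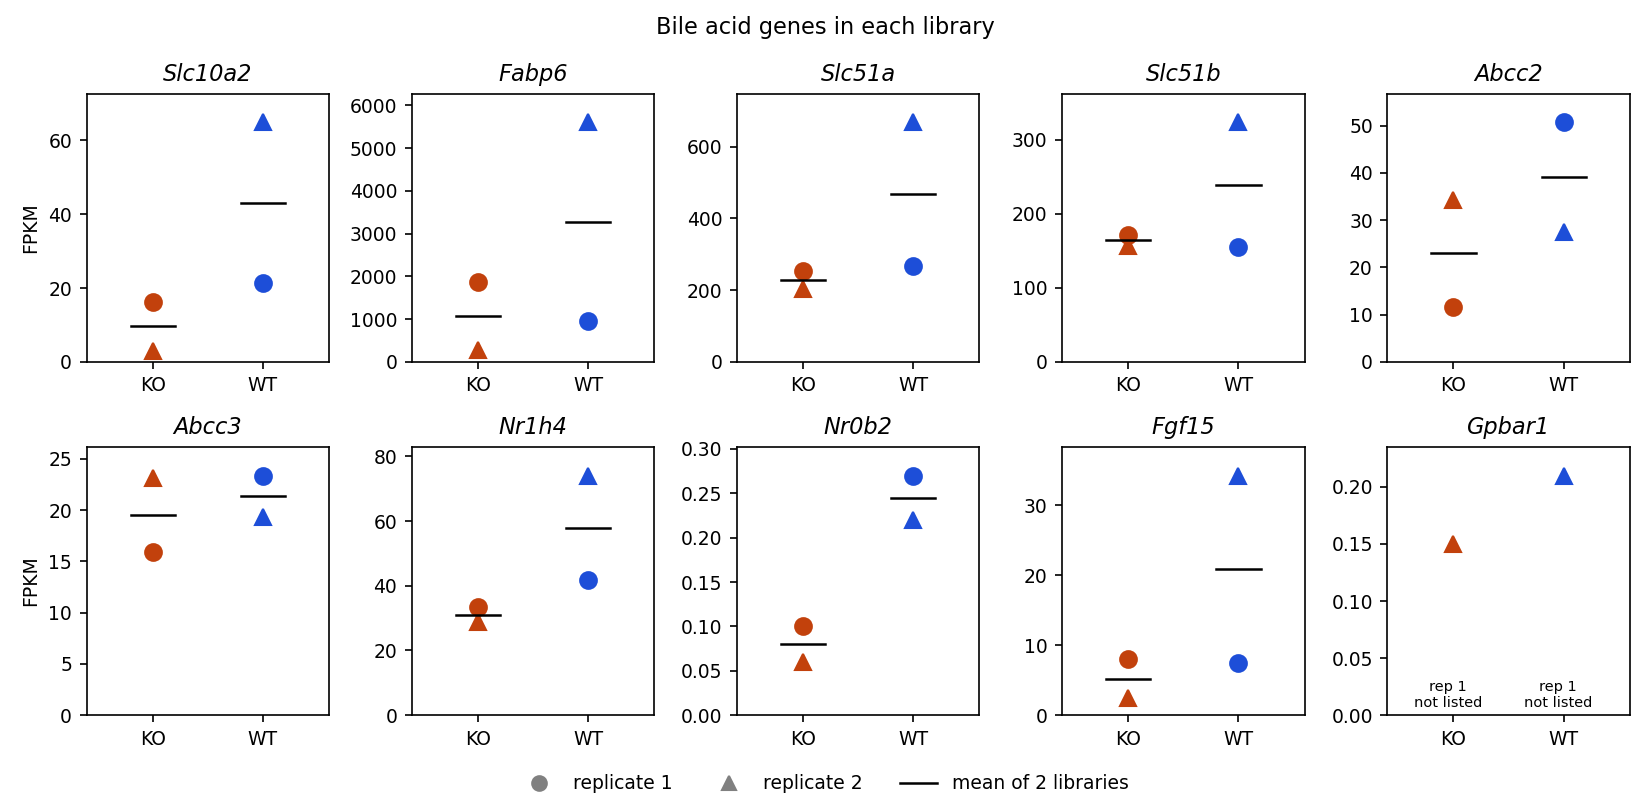
FPKM (vertical axes, from 0) of each bile acid gene in the KO and WT libraries, with circles for replicate 1, triangles for replicate 2 and a line at the mean of 2 libraries. WT replicate 2 was highest for 6 of the 8 tested genes, Fabp6 reaching 5605 FPKM there against 279 FPKM in KO replicate 2.

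The promoters of the transport genes are shown because Fxr is known to bind pairs of the half-site AGGTCA, set as an inverted repeat with 1 base between them. RefSeq's table for GRCm38.p6 held the start of 8 of the 10 genes, and the 250 bases before each start were searched on both strands. A repeat was accepted with up to 3 mismatches in its 12 fixed bases, which 9.63% of all 32851 promoters in that table contained, and 0.959% contained one with up to 2. Fabp6 held 2 of these repeats with 2 mismatches each, at 222 to 210 and at 142 to 130 bases before the start, and 4 of all the promoters held at least 2 such repeats. Slc51a held 1 repeat with 3 mismatches at 79 to 67 bases before the start, and Slc51b held 1 with 3 mismatches at 187 to 175. Slc10a2 held none, nor did the other 4 promoters. An exact half-site, found in 14.02% of all promoters, stood in Slc51a, Slc51b, Nr1h4 and Abcc2, and AGATAA, the core bound by GATA factors, in Nr1h4 alone, against 9.99% of all promoters. The start that the table gives for Nr1h4 lies inside the span of the gene, its window being chr10:89506659-89506908 on the minus strand, so both matches there stand before an internal start. Each line runs 5′ to 3′ on the strand of the gene up to the base before its start, with repeats and exact half-sites in capitals. A match is a match of letters and not a measured site. Fabp6 lies on the minus strand at chr11:43601563-43601812, Slc51a on the minus strand at chr16:32487880-32488129, Slc51b on the minus strand at chr9:65422774-65423023 and Slc10a2 on the minus strand at chr8:5105288-5105537.
Fabp6: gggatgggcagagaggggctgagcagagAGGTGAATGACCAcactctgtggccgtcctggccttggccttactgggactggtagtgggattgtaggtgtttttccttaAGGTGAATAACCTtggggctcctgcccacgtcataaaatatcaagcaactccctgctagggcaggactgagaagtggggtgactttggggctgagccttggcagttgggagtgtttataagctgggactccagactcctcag
Slc51a: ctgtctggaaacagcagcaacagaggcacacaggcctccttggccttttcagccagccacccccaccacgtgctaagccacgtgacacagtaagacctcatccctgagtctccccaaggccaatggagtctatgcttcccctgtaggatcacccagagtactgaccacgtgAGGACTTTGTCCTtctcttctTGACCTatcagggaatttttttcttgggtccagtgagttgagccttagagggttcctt
Slc51b: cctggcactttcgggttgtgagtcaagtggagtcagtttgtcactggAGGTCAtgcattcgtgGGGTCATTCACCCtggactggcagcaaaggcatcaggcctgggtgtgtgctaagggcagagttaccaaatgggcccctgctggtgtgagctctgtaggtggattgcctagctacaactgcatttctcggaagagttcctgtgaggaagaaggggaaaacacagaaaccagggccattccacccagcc
Slc10a2: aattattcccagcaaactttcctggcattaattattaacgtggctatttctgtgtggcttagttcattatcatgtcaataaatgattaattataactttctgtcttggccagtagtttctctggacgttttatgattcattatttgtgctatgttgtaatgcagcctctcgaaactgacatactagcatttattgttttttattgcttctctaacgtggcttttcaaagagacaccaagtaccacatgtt

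The ATP-driven pumps had another pattern. Abcc2, on chromosome 19 from 43782308 to 43838332, encodes a pump of the apical membrane that exports conjugated compounds into the gut lumen. It was at 11.7 and 34.4 FPKM in KO, against 50.7 and 27.5 FPKM in WT, so it was highest in WT replicate 1 and lowest in KO replicate 1. The genotypes overlapped, with a log2 fold change of -0.77 (SE 0.51, edgeR adjusted p = 0.503) that was -0.23 without KO replicate 1, -0.27 without WT replicate 1 and -1.65 without KO replicate 2. Abcc3, on chromosome 11 from 94343295 to 94393017, encodes the pump of the opposite, basolateral membrane, which carries conjugated bile acids. It was at 15.95 and 23.1 FPKM in KO, against 23.4 and 19.4 FPKM in WT. Abcc3 had the smallest spread of the 8 tested genes, 1.47-fold between its highest and lowest library, and a log2 fold change of -0.11 (SE 0.23, edgeR adjusted p = 0.844) that became 0.02 without WT replicate 1 and 0.07 without KO replicate 1.

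Nr1h4, the Fxr gene on chromosome 10 from 89454234 to 89533645, was at 33.3 and 28.7 FPKM in KO, against 41.9 and 74.1 FPKM in WT. The KO libraries held the 2 lowest FPKM values. With a log2 fold change of -0.86 (SE 0.32) its unadjusted p was 0.0377, and after adjustment over the whole table p was 0.296 (edgeR) and 0.181 (DESeq2). Without WT replicate 2 the fold change became -0.39. In FPKM, 3 of the 8 tested genes (Slc10a2, Slc51a and Nr1h4) had both KO libraries below both WT libraries, beside 24.7% of all tested genes. The levels of Slc10a2 were known when the genes were chosen, so this count is a description.

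The genes known to respond to Fxr stood far apart in level. Fgf15, the hormone gene on chromosome 7 from 144896532 to 144900953, was at 7.98 and 2.48 FPKM in KO, against 7.41 and 34.2 FPKM in WT. Its expected counts were 219 and 61 in KO, against 200 and 911 in WT. KO replicate 1 was close to WT replicate 1, WT replicate 2 was high and KO replicate 2 was low, and the highest library was 13.8 times the lowest. The log2 fold change was -1.91 (SE 0.86, edgeR adjusted p = 0.347), and it became -0.42 without WT replicate 2. Set against the Fxr gene in the same library, the ratio of Fgf15 to Nr1h4 FPKM was 0.239 and 0.0865 in KO and 0.177 and 0.462 in WT.

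Nr0b2, on chromosome 4 from 133553376 to 133556686, encodes the small heterodimer partner, a repressor that lacks a DNA-binding domain. It was at 0.10 and 0.06 FPKM in KO, against 0.27 and 0.22 FPKM in WT, which rest on 2 and 1 expected counts in KO and 5 and 4 in WT. Gpbar1, on chromosome 1 from 74278600 to 74279589, encodes the membrane bile acid receptor Tgr5, known from enteroendocrine cells and macrophages. It was listed in KO replicate 2 at 0.15 FPKM (2 counts) and in WT replicate 2 at 0.21 FPKM (3 counts), and was not listed in either replicate 1. Neither gene was tested, and at these counts a difference between the genotypes was not detectable.

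The direction of the KO to WT difference depended on which libraries were paired. Between the replicates 1, the libraries high in Xist, the log2 CPM difference of KO minus WT was 1.08 for Fabp6, 0.22 for Fgf15, 0.27 for Slc51b, 0.03 for Slc51a, -0.21 for Nr1h4 and -0.28 for Slc10a2. Between the replicates 2, the libraries with Ddx3y, it was -4.37 for Fabp6, -3.79 for Fgf15, -1.10 for Slc51b, -1.76 for Slc51a, -1.42 for Nr1h4 and -4.49 for Slc10a2. The pumps ran the other way, with -2.002 for Abcc2 and -0.44 for Abcc3 between the replicates 1 and 0.28 and 0.21 between the replicates 2. In all, 6 of the 8 tested genes had opposite signs in the 2 pairs, as did 39.8% of all tested genes. The 6 include Fabp6, whose levels were known beforehand. Pairing KO replicate 1 with WT replicate 2, and KO replicate 2 with WT replicate 1, left no opposite sign in CPM. Each of the 8 was then lower in KO in both pairs, Fabp6 at 894 against 2453 CPM and 118 against 422 CPM. In FPKM Slc51b was an exception, at 156 in KO replicate 2 against 155 in WT replicate 1. Each pair is 1 library against 1, so these differences carry no test.

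**Figure D2:**
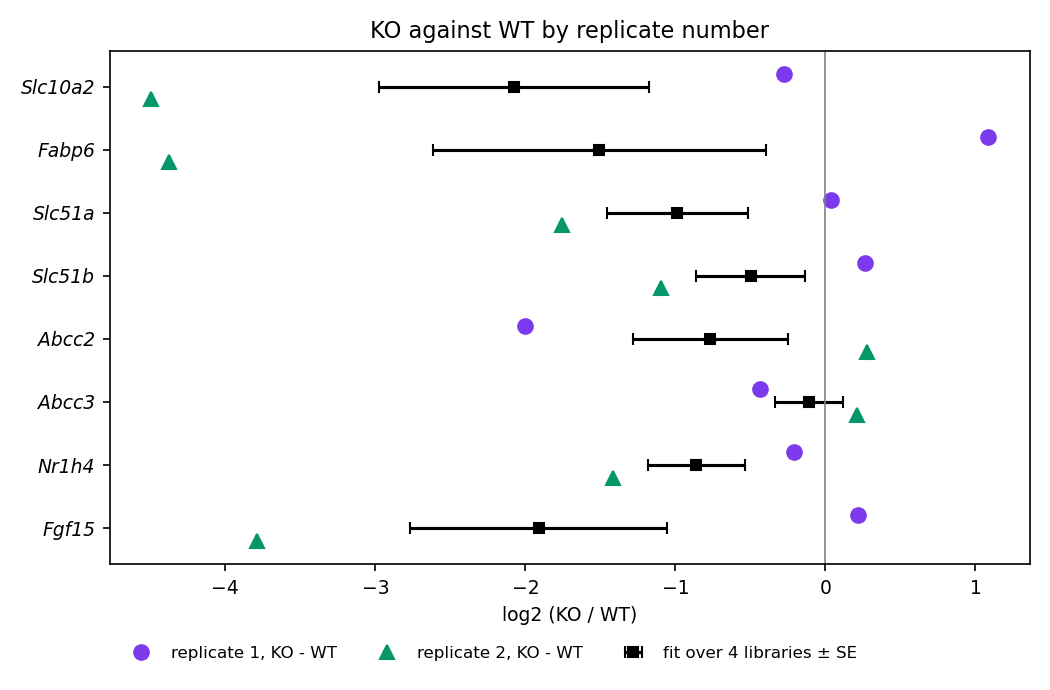
The log2 ratio of KO to WT (horizontal axis) for the 8 tested bile acid genes: circles for the replicates 1, triangles for the replicates 2, and squares with bars for the edgeR fit over 4 libraries with its SE. The replicate 2 values of Fabp6, Slc10a2 and Fgf15 lie at -4.37, -4.49 and -3.79, far from the replicate 1 values of 1.08, -0.28 and 0.22.

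Other genes tied to position along the gut were set beside the bile acid genes. Of 14 tested ileal enterocyte genes 10 were lower and 4 higher in KO, with a median log2 fold change of -1.02 beside 0.00 over all genes tested, and the median became -0.47 without WT replicate 2. In 7 of them both KO libraries were below both WT libraries, beside 24.7% of all tested genes, and 10 were highest in WT replicate 2, beside 22.7%. Most proximal genes ran against them in WT replicate 2, where 11 of 14 were lowest, beside 19.8% of all tested genes. Apoa4 and Gata4 are among the 11 and their values were known beforehand, so this count is a description. Slc40a1 alone of the proximal list was highest in WT replicate 2. Apoa4, an apolipoprotein gene of the jejunum, was at 1942 and 1048 FPKM in KO, against 2641 and 90.0 FPKM in WT. Gata4, whose product is known to repress Slc10a2 in the proximal intestine of mice, was at 43.5 and 51.4 FPKM in KO, against 40.4 and 8.25 FPKM in WT. The ratio of Fabp6 to Apoa4 FPKM was 0.958 and 0.267 in KO and 0.360 and 62.3 in WT, so WT replicate 2 stood apart from the other 3 libraries. The proximal list had a median log2 fold change of 0.32, with 9 of 14 higher in KO, which became -0.20 without WT replicate 2 and 2.05 without WT replicate 1.

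Of the proximal list, the lactase gene Lct was at 103 and 155 FPKM in KO, against 85.2 and 26.2 FPKM in WT (log2 fold change 1.23, edgeR adjusted p = 0.351, and 0.62 without WT replicate 2), and Adh6a, an alcohol dehydrogenase gene, was at 184 and 189 FPKM in KO, against 87.0 and 11.8 FPKM in WT (1.95, edgeR adjusted p = 0.328, and 1.13 without WT replicate 2). Cybrd1, the duodenal iron reductase gene, was at 0.74 and 0.81 FPKM in KO, against 2.09 and 2.05 FPKM in WT (-1.38, edgeR adjusted p = 0.221), and DESeq2 called it lower with an adjusted p of 0.0499. Genes of differentiated enterocytes, some of which also vary along the gut, were evenly split, 6 of 12 higher and 6 lower with a median of -0.07. Fabp2, a fatty acid-binding protein gene and the one of these with the smallest p, was at 3516 and 3703 FPKM in KO, against 2461 and 1585 FPKM in WT (0.87, edgeR adjusted p = 0.322). Sis, the sucrase-isomaltase gene, was at 360 and 821 FPKM in KO, against 814 and 341 FPKM in WT. The tested colon genes, 6 of 12, had 5 lower, beside 6343 of all 12769 tested genes, and 1 higher. Of the lower ones, Car1 did not exceed 65 counts in any library and Retnlb did not exceed 54. The higher one was Car4 (240 and 184 FPKM in KO, against 126 and 86.7 FPKM in WT, edgeR adjusted p = 0.247). DESeq2 called Car4 higher with an adjusted p of 0.0401, as it did 234 of all 12769 tested genes.

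**Figure D3:**
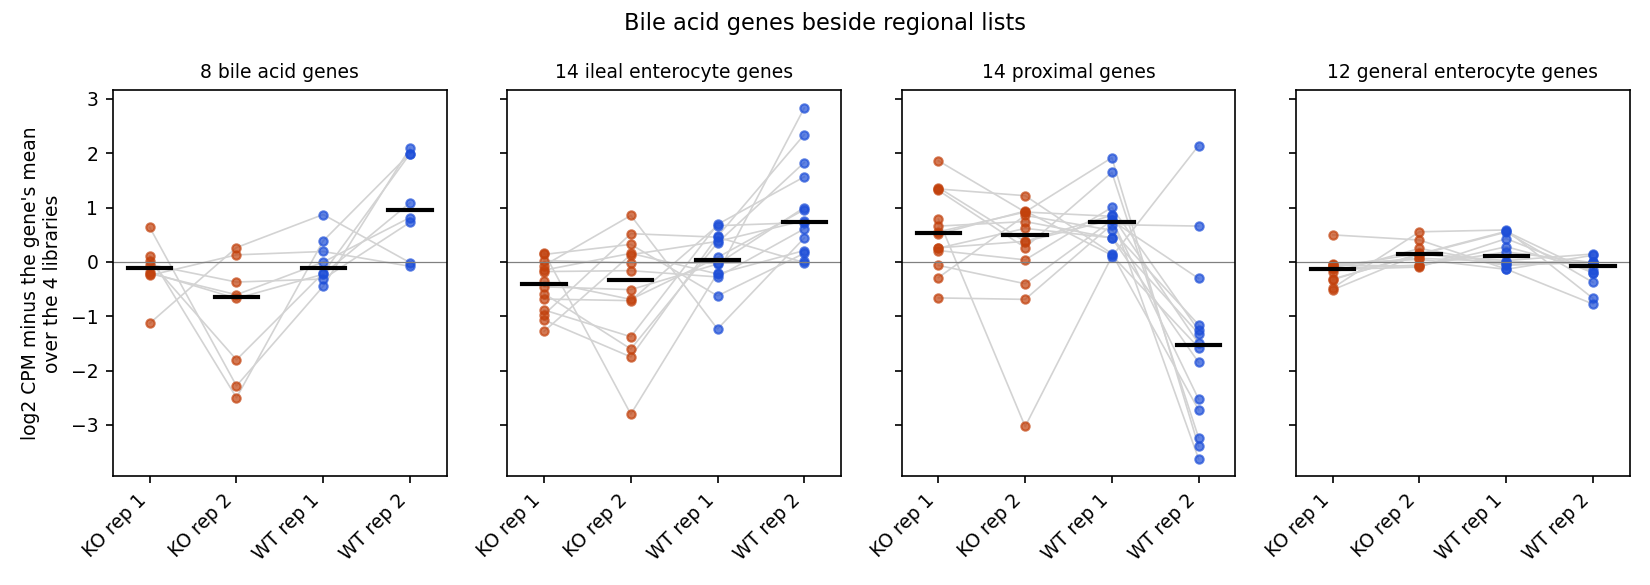
Log2 CPM of each gene minus its mean over the 4 libraries (vertical axis) in the KO and WT libraries, for the bile acid genes and 3 lists, with grey lines joining a gene's values and black bars at the list median. In WT replicate 2 the median was 0.95 for the bile acid genes, 0.74 for ileal genes and -1.54 for proximal genes, beside -0.08 for general enterocyte genes.

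The 4 ileal genes with the smallest p are described next, a choice that by itself favours genes whose libraries differ by genotype. Cubn, which encodes the receptor for vitamin B12 bound to intrinsic factor, was at 10.98 and 8.70 FPKM in KO, against 35.4 and 64.9 FPKM in WT, a log2 fold change of -2.30 (SE 0.38). Clec2h, a C-type lectin-related gene, was at 180 and 197 FPKM in KO, against 497 and 518 FPKM in WT (-1.39, SE 0.25). Tmigd1, an adhesion molecule gene of the brush border, was at 23.8 and 16.6 FPKM in KO, against 75.0 and 276 FPKM in WT (-3.07, SE 0.64), and Mep1a, a brush border protease gene, was at 55.5 and 30.6 FPKM in KO, against 115 and 320 FPKM in WT (-2.28, SE 0.59). Their edgeR adjusted p-values lay between 0.131 for Cubn and 0.215 for Mep1a, so none was called. Without WT replicate 2 the log2 fold change was -1.84 for Tmigd1 and -1.36 for Mep1a. DESeq2 called these 4 and Dpep1, a dipeptidase gene, as lower in KO, 5 of the 14, beside 3.14% of all genes. The log2 fold change of Dpep1 was -1.10, or -0.60 without WT replicate 2. Other members of the list lay near 0 or were higher in KO, with log2 fold changes of 0.0012 for Prss30, 0.012 for Enpep, -0.28 for Plb1, -0.40 for Xpnpep2 and 0.64 for Fam151a. Amn, singled out after its values were seen because its product works with that of Cubn, was at 68.3 and 86.9 FPKM in KO, against 43.5 and 75.2 FPKM in WT (0.41, edgeR adjusted p = 0.529).

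The other genes of the Fgf15 circuit were lower in KO where they could be tested, 4 of 4, beside 6343 of all 12769 tested genes. Their median log2 fold change was -1.58, and the remaining 7 of the list fell below the filter. Malrd1, whose product is known to raise Fgf15 output of the ileum in mice, was at 12.6 and 13.6 FPKM in KO, against 39.8 and 36.6 FPKM in WT. Its replicates agreed closely in each genotype, the log2 fold change was -1.51 (SE 0.20) and 35.0% of the WT level was left, with an adjusted p of 0.103 in edgeR and 1.49e-08 in DESeq2. Fgfr4, the Fgf15 receptor gene, was at 2.21 and 1.56 FPKM in KO, against 8.85 and 6.63 FPKM in WT (-1.99, SE 0.36), with an adjusted p of 0.148 in edgeR and 0.000345 in DESeq2. DESeq2 thus called 2 of the 4 as lower, beside 3.14% of all genes. Baat, whose enzyme joins bile acids to taurine or glycine, was at 0.54 and 0.90 FPKM in KO, against 1.81 and 2.76 FPKM in WT (-1.65, edgeR adjusted p = 0.275). Cyp27a1, a sterol hydroxylase gene, was at 13.9 and 15.5 FPKM in KO, against 43.2 and 10.8 FPKM in WT, so it was high in WT replicate 1 alone. Its log2 fold change of -0.845 became 0.469 without that library. The hepatic genes of synthesis and uptake (Cyp7a1, Cyp8b1, Cyp7b1, Slc10a1, Abcb11 and Slc27a5) did not exceed 0.20 FPKM in any library, and Klb, the co-receptor gene, did not exceed 0.41 FPKM.

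Of the receptors and partners of Fxr 11 of 15 were lower in KO, beside 6343 of all 12769 tested genes, with a median log2 fold change of -0.20. Among those with the smallest p were Vdr, the vitamin D receptor gene, whose product also binds a bile acid (-0.60, edgeR adjusted p = 0.347), Ncoa2, a coactivator gene (-0.52, 0.387 in edgeR), and the retinoid X receptor gene Rxrb (0.45, 0.408 in edgeR). Leaving out 1 library brought these as close to 0 as -0.36 for Vdr (WT replicate 2), and -0.24 for Ncoa2 and 0.22 for Rxrb (both KO replicate 1). Rxra, named after its values were seen as a partner gene of Fxr, was at 29.9 and 29.2 FPKM in KO, against 35.4 and 38.2 FPKM in WT. 

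Of 10 tested genes of other efflux pumps and sterol transporters, 9 were lower in KO, beside 6343 of all 12769 tested genes. Their median log2 fold change of -0.44 became -0.16 without KO replicate 1 and -1.38 without KO replicate 2. Abcc6, a pump gene of the Abcc2 and Abcc3 family, was at 0.86 and 0.94 FPKM in KO, against 3.49 and 3.76 FPKM in WT (-1.97, SE 0.31). Abcb1a, which encodes the drug exporter P-glycoprotein, was at 33.2 and 52.7 FPKM in KO, against 129 and 123 FPKM in WT (-1.54, SE 0.28). Abcc4, whose product exports bile acids and cyclic nucleotides, was at 0.39 and 0.69 FPKM in KO, against 5.63 and 1.14 FPKM in WT (-2.62, SE 0.78), and Abcc5 was at 0.83 and 1.63 FPKM in KO, against 5.49 and 2.16 FPKM in WT (-1.47, SE 0.51). Their edgeR adjusted p-values were 0.125 for Abcc6, 0.144 for Abcb1a, 0.249 for Abcc4 and 0.274 for Abcc5, and DESeq2 called the first 3 as lower, beside 3.14% of all genes. Without WT replicate 1 the log2 fold change was -1.08 for Abcc4 and -0.74 for Abcc5, and without WT replicate 2 that of Abcc4 was -3.35, with an edgeR adjusted p of 0.0308. Reads shared between related pump genes were divided by RSEM, so these levels are estimates.

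**Figure D4:**
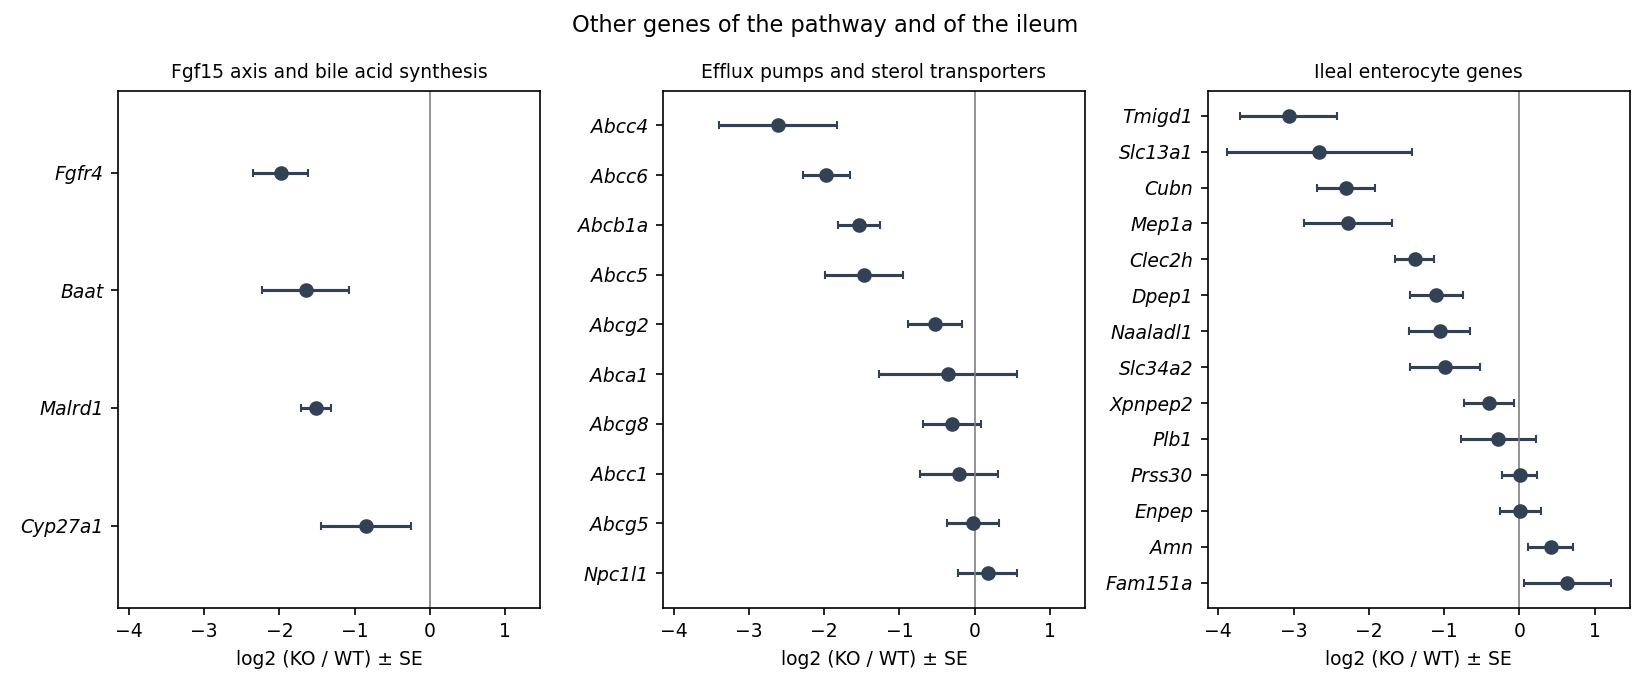
The log2 ratio of KO to WT with its SE (horizontal axes, edgeR) for each tested gene of 3 lists. Malrd1 at -1.51, Clec2h at -1.39 and Abcb1a at -1.54 have short bars, while Slc13a1, a sulfate transporter gene, has a wide one.

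Genes whose pattern over the 4 libraries was most like that of Fabp6 were sought among 11251 tested genes with a mean of at least 1 FPKM, by the Euclidean distance of log2 CPM after centring each gene. The nearest were Retnlb (distance 0.468), Rgs13 (0.580), Tspan6 (0.701), Bex1 (0.711) and Alox5 (0.741). Some of these were near the floor. Retnlb, a gene of the colon list, had 12 counts in KO replicate 1, against 8 and 54 in WT. It was not listed in KO replicate 2, where the prior count of 2 sets its log2 CPM. Tspan6 and Alox5 did not exceed 3.36 FPKM in any library. Bex1 was at 5.74 and 0.69 FPKM in KO, against 5.28 and 19.1 FPKM in WT. Among the 5 nearest to Slc10a2 were Bex1 (0.376), Rgs13 (0.587), Sh2d7 (0.594) and Retnlb (0.704). With log2(FPKM + 1) in place of log2 CPM the first for Fabp6 were Slc40a1 (0.591) and Bex1 (0.812), and the first for Slc10a2 were Tceal8 (0.490) and Bex1 (0.496), so Bex1 stood in each set of 5. Slc40a1, a gene of the proximal list, was at 6.41 and 0.47 FPKM in KO, against 4.29 and 17.8 FPKM in WT. The points are 4 libraries that share depth and preparation with the genes compared.

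Markers of other cells moved with some of the same libraries, and their part in the results was not tested. Paneth cell genes, which belong to the small-intestinal crypt, were highest in WT replicate 2 for 5 of 5 genes, beside 22.7% of all tested genes. They summed to 10760 and 7212 CPM in KO, against 9225 and 24490 CPM in WT. Goblet cell genes were highest in WT replicate 2 for 6 of 6, beside the same 22.7%. They summed to 8767 and 9162 CPM in KO, against 5516 and 15730 CPM in WT. T and natural killer cell genes were highest in KO replicate 2 for 7 of 7 tested genes, beside 24.8% of all tested genes, at 29.7 and 275 CPM in KO, against 50.4 and 34.9 CPM in WT. Enteroendocrine genes summed to 192 and 316 CPM in KO, against 160 and 244 CPM in WT, a sum over 4 genes higher and 4 lower in KO. DESeq2 called 1 of these 8 higher and 0 lower, beside 234 higher and 401 lower of all 12769 tested genes. Fibroblast genes summed to between 1.43 and 12.3 CPM, smooth muscle genes to between 0.065 and 1.99 CPM and macrophage genes to between 22.1 and 48.9 CPM over the 4 libraries, of which Itgam gave 40.2 and 42.6 CPM in KO, against 12.1 and 42.6 CPM in WT. Adgre1, a defining macrophage gene, was not listed in KO replicate 1 or WT replicate 2. Of 5 genes used for hepatocytes, Alb was listed in WT alone, at 2.67 and 0.03 FPKM, and the list's sum of 879 and 1645 CPM in KO, against 4548 and 1610 CPM in WT, came mostly from Apob, which enterocytes also express.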

How the data were processed

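Polyadenylated RNA of 2 Strap KO and 2 Strap WT adenoma libraries was analysed. Bowtie2 2.2.5, RSEM 1.2.12 and mm10 are listed in the submitters' processing notes. Per the file headers, the authors deposited RSEM expected counts, FPKM and a transcript length for each gene, and the lowest FPKM in each table was 0.01, so a missing gene is described as not listed. The deposited length column, the only other unit used, was read for the members alone. The sources used here do not state strandedness, so reads of overlapping genes may be mixed.

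Tables were joined by Entrez identifier with pandas 2.3.3, leaving out 1 row without a gene per library (at most 0.000233% of counts). Expected counts were rounded and tested in R 4.3.3 with edgeR 4.0.16 (quasi-likelihood, genotype as the only term, TMM, filterByExpr, Benjamini-Hochberg over 12769 genes, threshold 0.05). Each SE is the log2 fold change divided by the root of F. TMM factors lay between 0.937 and 1.04, and the biological coefficient of variation was 32.5%. CPM uses the TMM factors, and centred log2 CPM a prior count of 2. The test was checked on simulated data.

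The members and lists were chosen with earlier results of these data known. Named are the members, Strap, the 4 genes of each list with the smallest p, the 5 nearest to Fabp6 and to Slc10a2, members behind small counts, and Apoa4, Gata4, Sis, Car1 and Hoxb13, except 3 genes that are not reported here. Coordinates and promoters come from RefSeq for GRCm38.p6, the assembly behind mm10. Alternatives were limma 3.58.1 on log2 FPKM with a pseudocount of 1 or 0.1, DESeq2 1.42.0, its size factors in edgeR, no TMM factors, 2 other filters (none, or 50 counts in 2 libraries), a call that also needs a 2-fold change, the replicate block, omission of single libraries, and fewer mismatches in the promoter repeat. Chosen after seeing the data were the crossed pairing, the share of promoters with at least 2 repeats, and the gene set for omitting a library: the filter was first applied again to the 3 remaining libraries, and after those counts were seen the genes of the 4-library test were kept. Both forms are given.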

Additional observations from a re-analysis of the deposited data

Results flagged for a closer look

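For 6 of the 8 tested genes the KO to WT difference had opposite signs in the libraries of replicate 1, which were high in Xist, and of replicate 2, which held Ddx3y. The difference between the pairs was not tested, since each pair is 1 library against 1. The log2 CPM difference of KO minus WT in replicate 2, less that in replicate 1, was -5.46 for Fabp6, -4.01 for Fgf15, -1.79 for Slc51a, -1.36 for Slc51b, 2.28 for Abcc2 and 0.649 for Abcc3. Of all tested genes 39.8% had opposite signs in the same pairs. The levels of Fabp6 were known when the genes were chosen. The signs depend on pairing by replicate number. With KO replicate 1 set against WT replicate 2, and KO replicate 2 against WT replicate 1, each of the 8 was lower in KO in CPM in both pairs. For Slc51a the replicate 1 difference was 0.03 in CPM and the sign was the other way in FPKM, at 254 FPKM in KO and 268 FPKM in WT.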

How the results depend on the processing

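edgeR called 1 gene higher and 0 lower in KO over the whole table, and 904 higher and 1109 lower before adjustment. The number higher was 0 with library size alone and with both limma fits, 19 with no filter and 235 with DESeq2. The number lower was 8 with no filter and 432 with DESeq2, of which 401 were among the genes edgeR tested. Without WT replicate 2, 41 were higher and 133 lower on the genes of the 4-library test, and 72 and 300 when the filter was applied again. Without any other library both numbers were 0 in either form. Same-numbered libraries deviated with a correlation of -0.12, which cannot decide whether the numbers pair them, because it is 1 value across genes. The labels do not say that equal numbers share an animal, litter or day, so genotype was the only term. Equal numbers do share the Xist and Y-linked pattern. With the replicate block 46 were higher and 70 lower, and with the crossed pairing 65 and 99.

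The crossed pairing, chosen after seeing the data, joined KO replicate 1 with WT replicate 2 and KO replicate 2 with WT replicate 1. Each block therefore mixed the Xist and Y-linked patterns. It put Fgf15 (log2 fold change -1.81) past the threshold, as it did Malrd1, Cubn, Tmigd1 and Mep1a. Because the block was chosen with the values seen, these calls are a description and not a test. No other alternative put a tested bile acid gene past the threshold. The log2 fold change of Slc10a2 was -2.38 there, given as a description because its levels were known beforehand. Leaving out a library gave from -3.60 to 0.26 for Fabp6, -3.92 to -1.06 for Slc10a2, -0.95 to 0.11 for Slc51b, -3.11 to -0.42 for Fgf15, -1.65 to -0.23 for Abcc2 and -0.33 to 0.068 for Abcc3. With the filter applied again the ends that turned sign were 0.284 for Fabp6 and 0.133 for Slc51b (both without WT replicate 2), and 0.0767 without KO replicate 1 and 0.0181 without WT replicate 1 for Abcc3. For genes of other lists the range was -1.53 to 0.469 for Cyp27a1, -0.924 to 0.0369 for B4galnt2, -0.765 to 0.0394 for Slc15a1, -0.546 to 0.0658 for Alpi, -0.763 to 4.10 for Apoa4 and -0.592 to 0.782 for Sis. The cause was not tested. Allowing 2 mismatches left a promoter repeat in Fabp6 alone, and allowing 1 or 0 left none in these promoters. With 2 libraries per group, and at most 5 counts for Nr0b2 and Gpbar1, small differences could not be seen. Large ones could also go uncalled in edgeR. Strap had a log2 fold change of -2.57, with 16.9% of the WT level left, and an adjusted p of 0.0942 in edgeR and 8.42e-14 in DESeq2.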
